A study of Arabidopsis thaliana with 10 samples.

Results

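Conjugating enzymes of 2 families were followed in rosettes of Arabidopsis thaliana, the UDP-glycosyltransferases (UGT) and the glutathione S-transferases (GST). Members were the probe sets annotated to exactly 1 gene whose symbol is UGT followed by digits, a capital letter and a number, or GST or ATGST followed by U, F, Z, T or L and a number. UGT78D2, which glucosylates flavonols and anthocyanidins, was left out. The rule found 46 UGT and 14 GST genes, 60 of the 13350 genes named on the array, each with a single probe set. The rule reads gene names only. In the reference 58 genes have a UGT symbol of this pattern and 48 a GST symbol, so the members are a part of each family.

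Transcript levels were measured on 10 Affymetrix ATH1 arrays of untreated 4-week-old plants of ecotype Col-0, grown in a room chamber at 22 °C and 50% humidity. The groups were homozygous (3 arrays) and heterozygous (3 arrays) plants of a line labelled AtCesA4, allele irx5-2, and homozygous (2 arrays) and heterozygous (2 arrays) plants of a line labelled AtCesA6, allele irx6-1. The lines are called CesA4 and CesA6 here, after the cellulose synthase genes. Every group carries the mutant allele on at least 1 chromosome copy, wild-type plants were not analysed here, and the heterozygous plants of the same line are the comparison. CESA4 and CESA6 had no named probe set, which leaves the genotypes unchecked here, and the reference gives IRX6 as the symbol of another gene, COBL4. Whether replicate arrays came from different plants, pooled plants or a single RNA is not given by the labels. The n is therefore the number of arrays, and p-values measure only the spread between arrays, which may be technical.

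UGT enzymes transfer a sugar from a UDP-sugar to small molecules such as hormones, flavonols, monolignols and foreign compounds, which usually makes them more soluble and stores or inactivates them. GST enzymes join glutathione to reactive compounds or carry and reduce small molecules. Among plant GSTs the tau (U) and phi (F) classes are large and plant-specific, while lambda (L) members reduce rather than conjugate. Products of both families are commonly moved to the vacuole. In leaves the families are known for handling hormones, pigments, wall precursors, glucosinolates and herbicides.

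Signals are MAS5 intensities on the deposited linear scale, on which every array had a 2% trimmed mean of 100.01. Arrays of the same group correlated at 0.934 to 0.953 on the log2 scale, and no pair of arrays correlated below 0.872. The ratio of the 3′ to the 5′ control probe set of GAPDH ran from 1.37 to 2.34 and overlapped between the genotypes of each line. The same ratio for ubiquitin was lower in homozygous CesA4 plants, at 2.36 to 2.73, against 2.92 to 3.05 in heterozygous CesA4 plants, and overlapped in the CesA6 line. For actin it was 18.6 to 24.8 over all arrays and was higher in homozygous CesA6 plants, at 21.1 to 22.4, against 18.8 to 19 in heterozygous CesA6 plants, with overlap in the CesA4 line. The part of these ratios, which bear on RNA quality, in the results below was not tested. Of 31 marker genes of leaf, root, seed and flower, 3 had a named probe set. The leaf gene RCA (Rubisco activase) had signals from 9890 to 11980 over the 10 arrays, and the leaf gene SBPASE from 2577 to 4052. SBPASE fell by 0.40 ± 0.12 on the log2 scale in homozygous CesA4 plants (limma adjusted p = 0.0222, lost in 5 of 19 alternatives), with 2779, 2577 and 3049 in homozygous plants, against 3732, 3354 and 4052 in heterozygous plants. The root-expressed beta-glucosidase gene PYK10 had 378.0, 441.2 and 285.4 in homozygous CesA4 plants, against 309.0, 177.8 and 101.3 in heterozygous CesA4 plants, and 360.2 and 278.4 in homozygous CesA6 plants, against 121.4 and 97.3 in heterozygous CesA6 plants. Its log2 changes of 1.02 ± 0.34 (SE, adjusted p = 0.0764) and 1.52 ± 0.42 (adjusted p = 0.052) did not pass in limma, and the part of either gene in the results below was not tested.

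Changes were fitted with limma on log2(signal + pseudocount), so a log2 change understates that of a dim gene. Probe sets with a mean over all arrays below 10.71, the lowest 30%, were not tested. This left 27 of the 46 UGT genes and 9 of the 14 GST genes. The 19 UGT genes not tested had means from 1.836 to 10.55, and include UGT71B6 and UGT71B8, which glucosylate abscisic acid, UGT74F1, which glucosylates salicylate, and UGT76B1, which glucosylates isoleucic acid and N-hydroxypipecolate. The 5 GST genes not tested were ATGSTF13, GSTU15, GSTU21, GSTU25 and GSTU28. Members just above the filter were UGT73C1 at 11.49, UGT71B5 at 11.56 and GSTU22 at 11.98, and just below it UGT71C3 at 10.55, UGT76B1 at 10.41 and GSTU28 at 8.5.

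**Figure D1:**
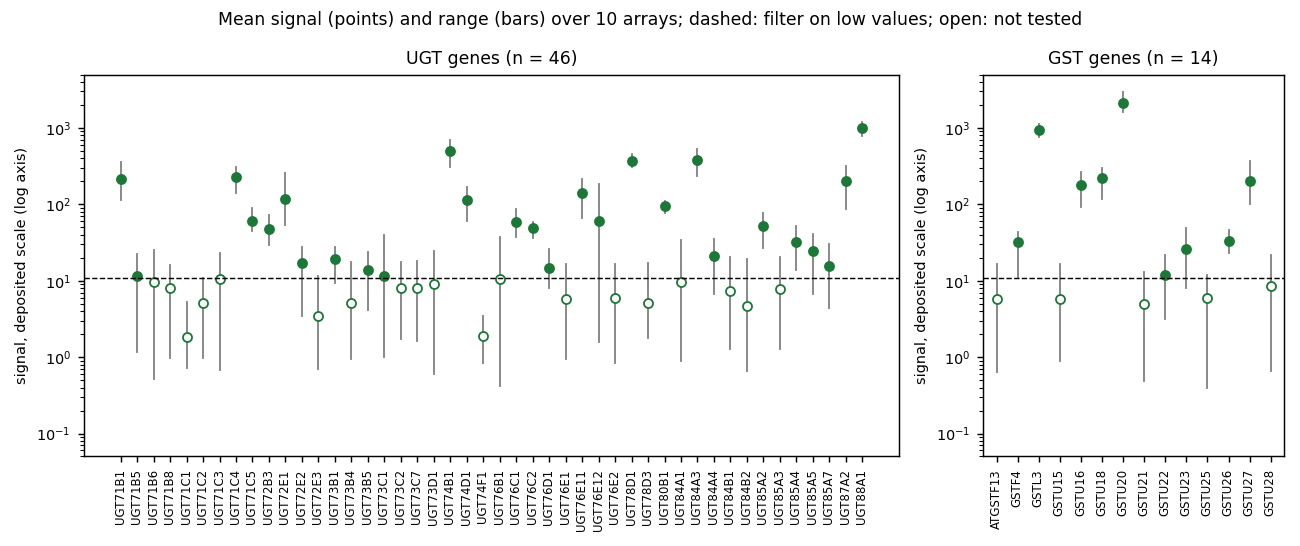
Mean signal over the 10 arrays (points) and range over them (bars), on a log axis of the deposited scale, for the 46 UGT genes (left) and 14 GST genes (right) in order of name. Filled points mark the 27 UGT and 9 GST genes above the filter on low values (dashed line at 10.71), and open points those not tested.

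The first question was which UGT genes differ between homozygous and heterozygous plants. In the CesA4 line UGT76E12, UGT76E11, UGT84A3, UGT87A2, UGT71B1 and UGT74B1 were higher and UGT85A4 was lower in homozygous plants. UGT76E12, UGT76E11 and UGT84A3 were also higher in homozygous CesA6 plants, and UGT72E1 was lower there. In count this was 7 of 27 tested UGT genes in the CesA4 line (25.9%), 6 higher and 1 lower, where 15.2% of all 15922 tested probe sets passed (8.22% higher, 6.97% lower). For the CesA6 line it was 4 of 27 (14.8%), 3 higher and 1 lower, where 8.55% of all probe sets passed (3.73% higher, 4.82% lower). The tested UGT genes had a median log2 change of 0.10 in the CesA4 line, against 0.02 over all probe sets, and of -0.03 in the CesA6 line, against -0.04. Since these are extracts of whole rosettes, fewer cells of a type and less RNA per cell cannot be told apart. Over the 4 comparisons reported here 8 UGT and 3 GST genes passed at least once, where 20.8% of all probe sets did. Homozygous and heterozygous arrays did not overlap for 29.7% of all tested probe sets in the CesA4 line and for 51.7% in the CesA6 line, which has fewer arrays.

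**Figure D2:**
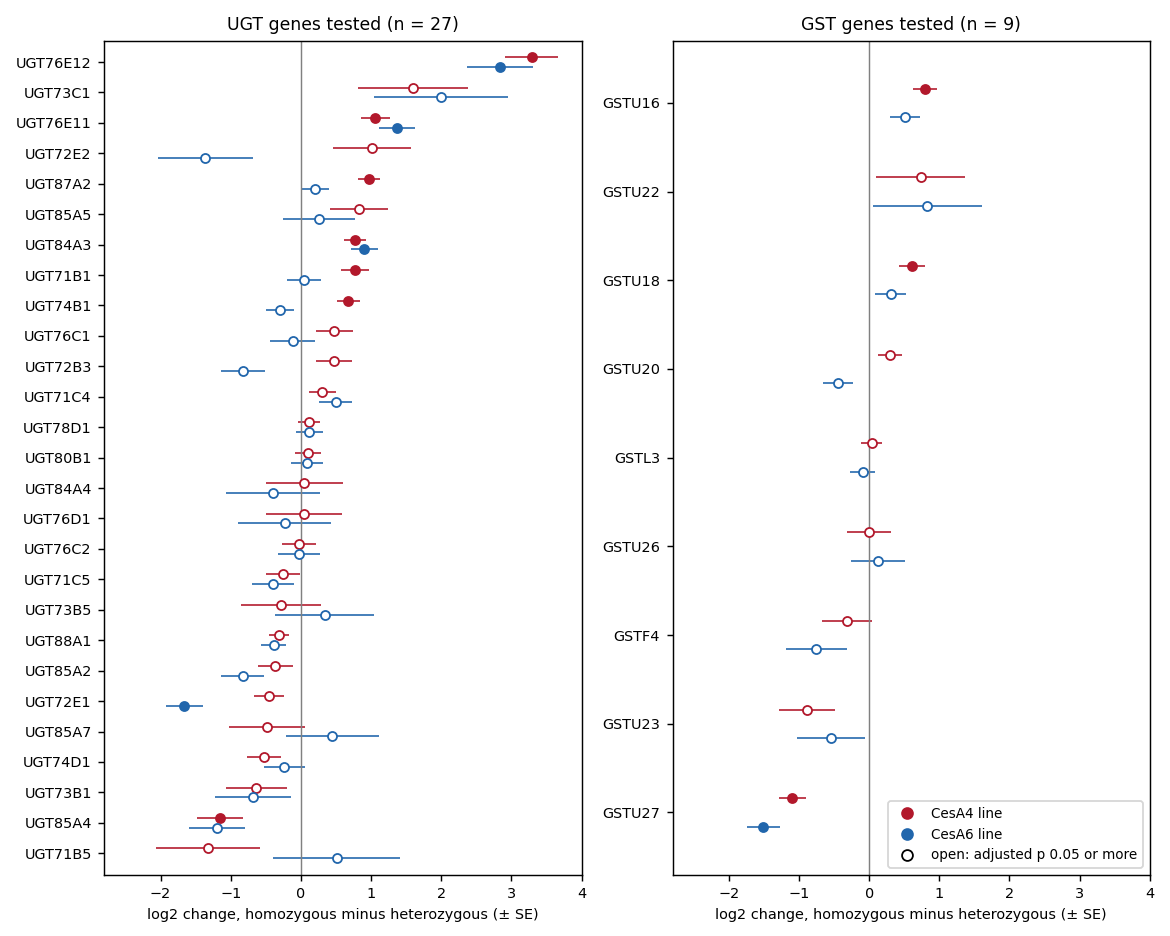
Log2 change, homozygous minus heterozygous, with its standard error, for the 27 tested UGT genes (left) and the 9 tested GST genes (right), in the CesA4 line (red, 3 against 3 arrays) and the CesA6 line (blue, 2 against 2 arrays). Filled points passed an adjusted p of 0.05. UGT76E12 lies farthest to the right in both lines, at 3.29 and 2.84, and GSTU27 is the GST gene that passed in both, at -1.09 and -1.51.

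UGT76E12 (AT3G46660), of the UGT76 group, had the largest change of the tested members in each line. Its signals were 103.8, 59.45 and 103.9 in homozygous CesA4 plants, against 1.579, 8.734 and 10.2 in heterozygous CesA4 plants. They were 182.1 and 98.44 in homozygous CesA6 plants, against 13.68 and 18.63 in heterozygous CesA6 plants. Every homozygous array lay above every heterozygous array of either line, and the lowest homozygous signal was 59.45 against a highest heterozygous one of 18.63. The log2 change was 3.29 ± 0.38 in the CesA4 line (SE, n = 3 each, limma adjusted p = 8.35e-07), a 9.79-fold difference, and 2.84 ± 0.47 in the CesA6 line (n = 2 each, adjusted p = 0.000186), a 7.15-fold difference. The changes of the lines differed by 0.45 ± 0.60, which did not pass (adjusted p = 0.813). All its heterozygous CesA4 signals, with a mean of 6.838, lay below the filter on low values. Its heterozygous CesA6 signals, with a mean of 16.16, lay not far above the filter. With heterozygous signals this low, the size of the fold depends on the pseudocount. The log2 change in the CesA4 line was 2.19 with the pseudocount of 16 on the deposited scale. The mean of UGT76E12 over all arrays, 60.06, passed the filter through the homozygous arrays.

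UGT76E11 (AT3G46670), known to glucosylate flavonols, lies within 3 genes of UGT76E12. It had signals of 204.6, 155.5 and 192.4 in homozygous CesA4 plants, against 130.7, 66.81 and 72.38 in heterozygous CesA4 plants. It had 217.5 and 206.2 in homozygous CesA6 plants, against 83.72 and 77.14 in heterozygous CesA6 plants. The groups did not overlap in either line, although heterozygous CesA4 replicate 1 stood well above the other heterozygous arrays. The log2 change was 1.06 ± 0.21 in the CesA4 line (limma adjusted p = 0.000765) and 1.36 ± 0.26 in the CesA6 line (adjusted p = 0.000891). UGT76E1, known to glucosylate a hydroxylated jasmonate, and UGT76E2 neighbour each other elsewhere in the genome. Both lay below the filter, with means over all arrays of 5.702 and 5.942, and neither was tested. For UGT76E1 the genotypes overlapped in the CesA4 line, while its homozygous CesA6 arrays, at 9.55 and 2.496, lay above the heterozygous CesA6 arrays, at 1.705 and 1.639. For UGT76E2 the genotypes overlapped in each line.

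UGT84A3 (AT4G15490) encodes an enzyme of the group that makes glucose esters of hydroxycinnamic acids, precursors of sinapate esters. It averaged 490.8 ± 64.4 in homozygous and 285.3 ± 37.0 in heterozygous CesA4 plants (SD over 3 arrays each), and 469.8 ± 36.6 in homozygous and 249.5 ± 20.3 in heterozygous CesA6 plants (n = 2 each). The log2 changes were 0.78 ± 0.15 (limma adjusted p = 0.000858) and 0.90 ± 0.19 (adjusted p = 0.00248), with no overlap of the groups in either line. The CesA6 call was lost without heterozygous CesA6 replicate 2 (adjusted p = 0.0502). Of its neighbours of the same role, UGT84A4 stood at 0.05 ± 0.55 and -0.40 ± 0.67 and did not pass, and UGT84A1 lay below the filter. UGT76E12, UGT76E11 and UGT84A3 were the 3 of 27 tested UGT genes higher in both lines, where 2.78% of all probe sets were. They make up 42.9% of the UGT calls of the CesA4 line and 75% of those of the CesA6 line. Over all probe sets 36.7% and 65.1% of the calls were shared in direction between the lines.

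The other UGT genes called in the CesA4 line differed in the CesA6 line by amounts that did not pass. UGT87A2 (AT2G30140), known to affect flowering time, averaged 198.0 ± 9.95 in homozygous and 99.95 ± 12.0 in heterozygous CesA4 plants, a log2 change of 0.97 ± 0.16 (limma adjusted p = 0.000114). In CesA6 plants it averaged 303.5 ± 21.1 in homozygous and 264.2 ± 42.5 in heterozygous plants, a change of 0.21 ± 0.20 (adjusted p = 0.633). UGT71B1 (AT3G21750), whose enzyme glucosylates flavonols in vitro, rose by 0.77 ± 0.20 in the CesA4 line (adjusted p = 0.0104) and stood at 0.04 ± 0.25 in the CesA6 line. Homozygous CesA4 replicate 1 had the highest UGT71B1 signal, 353.1, against 188.9 and 210.6 in the other homozygous CesA4 arrays, and the call was lost without it and without heterozygous CesA4 replicate 3, at an adjusted p of up to 0.106, and the log2 change was 0.50 without that homozygous array. Its neighbours UGT71B6 and UGT71B8 were not tested.

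UGT74B1 (AT1G24100), which adds the sugar in glucosinolate core synthesis, averaged 594.6 ± 97.5 in homozygous and 370.5 ± 58.6 in heterozygous CesA4 plants, a log2 change of 0.68 ± 0.16 (limma adjusted p = 0.00433). The call was lost with eBayes without trend and robust (adjusted p = 0.0561, from 0.00132 to 0.0561 over 19 alternatives). The order of the groups was the opposite in the CesA6 line, with 451.6 and 504.5 in homozygous plants, against 641.4 and 534.9 in heterozygous plants, and a change of -0.29 ± 0.20 that did not pass (adjusted p = 0.444). The arrays of each line did not overlap by genotype, and such opposite orders were seen for 2.75% of all tested probe sets. The difference between the changes was 0.97 ± 0.25 and did not pass (adjusted p = 0.0908). It passed with a replicate block (adjusted p = 0.0316) and in no other of 18 alternatives (up to 0.39).

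UGT85A4 (AT1G78270) was the UGT gene that fell in the CesA4 line. Its signals were 21.37, 21.44 and 13.91 in homozygous CesA4 plants, against 52.75, 36.95 and 47.39 in heterozygous CesA4 plants, a log2 change of -1.15 ± 0.33 (limma adjusted p = 0.0178). They were 21.48 and 14.46 in homozygous CesA6 plants, against 39.21 and 50.71 in heterozygous CesA6 plants, a change of -1.20 ± 0.40 that did not pass (adjusted p = 0.0705). That change passed with eBayes without trend and robust (adjusted p = 0.0471) and in no other of 18 alternatives (up to 0.363). All homozygous arrays of both lines lay below all heterozygous ones. The CesA4 call was lost when replicate 3 of the homozygous or replicate 1 or 3 of the heterozygous CesA4 arrays was left out, at an adjusted p of up to 0.0876. Of UGT85A2, UGT85A5 and UGT85A7, the tested genes of the same group, none passed in either line. UGT85A3 lay below the filter and was not tested. It had 20.19, 10.37 and 11.8 in homozygous CesA4 plants, against 1.891, 1.425 and 1.287 in heterozygous CesA4 plants. That order is the opposite of UGT85A4, and the genotypes overlapped in the CesA6 line.

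UGT72E1 (AT3G50740), which glucosylates coniferyl and sinapyl aldehydes of the lignin pathway, fell in the CesA6 line. Its signals were 79.82 and 53.64 in homozygous CesA6 plants, against 255.4 and 180.3 in heterozygous CesA6 plants, a log2 change of -1.66 ± 0.26 (limma adjusted p = 0.000131), or 3.17-fold lower. In the CesA4 line they were 104.9, 86.4 and 63.75 in homozygous plants, against 135.3, 114.9 and 97.86 in heterozygous plants, a change of -0.45 ± 0.22 that did not pass (adjusted p = 0.184). The heterozygous CesA6 arrays were the highest of all and the other groups lay closer together. The difference between the changes was 1.21 ± 0.34 and did not pass (adjusted p = 0.117), but passed with a replicate block (adjusted p = 0.0322) and in no other of 18 alternatives (up to 0.485). UGT72E2, which glucosylates monolignol alcohols, had 27.41, 18.64 and 26.6 in homozygous CesA4 plants, against 9.696, 22.88 and 3.928 in heterozygous CesA4 plants, and 13.14 and 3.408 in homozygous CesA6 plants, against 21.18 and 25.99 in heterozygous CesA6 plants. Its changes of 1.02 ± 0.56 and -1.36 ± 0.68 did not pass (adjusted p = 0.255 and 0.263). UGT72E3, of the same role, lay below the filter.

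**Figure D3:**
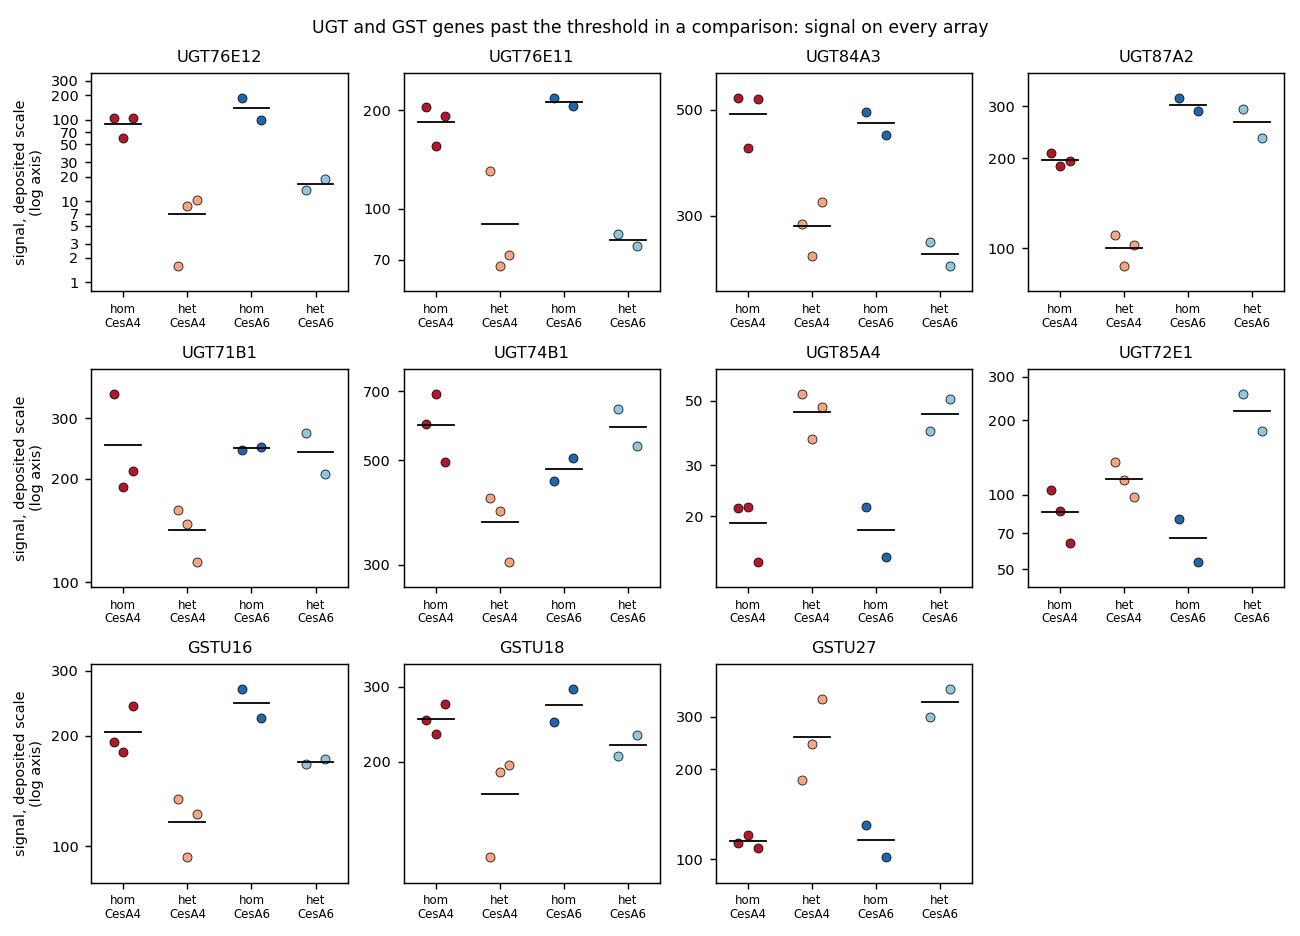
Signal on every array (points) and group mean (bars), on a log axis of the deposited scale that differs between panels, for the 8 UGT and 3 GST genes past the threshold in at least 1 comparison. From left to right each panel shows homozygous and heterozygous CesA4 arrays (3 each), then homozygous and heterozygous CesA6 arrays (2 each). UGT76E12, UGT76E11, UGT84A3, GSTU16 and GSTU18 have the homozygous arrays of each line above its heterozygous arrays, and UGT85A4 and GSTU27 have them below.

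Among the UGT genes that did not pass in a line, UGT73C1, known for O-glucosylating cytokinins and for conjugating trinitrotoluene, and UGT71B5 had the largest changes in the CesA4 line, and UGT73C1 and UGT72E2 in the CesA6 line. UGT73C1 had 19.59, 7.32 and 39.99 in homozygous CesA4 plants, against 2.531, 1.1 and 12.14 in heterozygous CesA4 plants, and 20.98 and 9.052 in homozygous CesA6 plants, against 1.217 and 1.006 in heterozygous CesA6 plants. Its mean over all arrays, 11.49, passed the filter only through the homozygous arrays. The heterozygous means were 5.258 in the CesA4 line and 1.111 in the CesA6 line. Its log2 changes of 1.59 ± 0.78 and 2.00 ± 0.96 (limma adjusted p = 0.199 and 0.239) are shrunken estimates in the CesA6 line, where the heterozygous mean lay below the pseudocount of 3.2 on the deposited scale. UGT71B5 stood at -1.32 ± 0.74 in the CesA4 line (adjusted p = 0.267) and at 0.51 ± 0.90 in the CesA6 line. It was dim, with 13.25, 1.151 and 1.229 in homozygous CesA4 plants, against 22.67, 9.396 and 12 in heterozygous CesA4 plants. The genotypes overlapped in each line, and the homozygous CesA4 mean of 5.211 lay below the filter. The 20 tested UGT genes that did not pass in the CesA4 line ranged from -1.32 to 1.59, and the 23 that did not pass in the CesA6 line from -1.36 to 2.00.

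Of 10 UGT genes known to conjugate abscisic acid, auxins, cytokinins, salicylate or N-hydroxypipecolate, 5 were tested. In limma 0 of the 5 passed in either line, where 15.2% and 8.55% of all probe sets did. At an unadjusted p under 0.05 the count was 1 of 5 in each line, UGT74D1 in the CesA4 line and UGT73C1 in the CesA6 line, where 26.5% and 20.8% of all probe sets were. UGT73C1 was tested only because its homozygous arrays lifted it over the filter, as given above. UGT76C1 and UGT76C2, which N-glucosylate cytokinins, stood at 0.48 ± 0.26 and -0.03 ± 0.24 in the CesA4 line and at -0.12 ± 0.32 and -0.03 ± 0.30 in the CesA6 line. UGT71C5, which glucosylates abscisic acid, stood at -0.25 ± 0.24 and -0.40 ± 0.30, and UGT74D1, which glucosylates auxins, at -0.53 ± 0.24 and -0.24 ± 0.29. UGT78D1, the flavonol rhamnosyltransferase gene, stood at 0.12 ± 0.16 and 0.12 ± 0.19, and UGT80B1, which makes steryl glucosides, at 0.10 ± 0.18 and 0.09 ± 0.22. Standard errors of this size leave changes of moderate size undetectable, so these values do not show that the genes stayed level.

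The GST members were fewer. In the CesA4 line GSTU16 and GSTU18 were higher and GSTU27 was lower in homozygous plants, and in the CesA6 line GSTU27 was lower. All 3 belong to the tau class, which held 7 of the 9 tested GST genes. In count this was 3 of 9 in the CesA4 line (33.3%) and 1 of 9 in the CesA6 line (11.1%), where 15.2% and 8.55% of all probe sets passed. The median log2 change of the tested GST genes was 0.04 in the CesA4 line, against 0.02 over all probe sets, and -0.09 in the CesA6 line, against -0.04.

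GSTU27 (AT3G43800) had signals of 113.9, 121.0 and 109.6 in homozygous CesA4 plants, against 184.3, 242.8 and 343.3 in heterozygous CesA4 plants. It had 130.6 and 101.6 in homozygous CesA6 plants, against 300.0 and 370.1 in heterozygous CesA6 plants. All 5 homozygous arrays lay below all heterozygous arrays, and the heterozygous CesA4 arrays were spread widely. The log2 change was -1.09 ± 0.19 in the CesA4 line (limma adjusted p = 0.000233), or 2.14-fold lower, and -1.51 ± 0.24 in the CesA6 line (adjusted p = 0.000118), or 2.84-fold lower. The difference between these changes, 0.41 ± 0.31, did not pass (adjusted p = 0.632). GSTU27 was the 1 of 9 tested GST genes lower in both lines, where 2.78% of all probe sets were.

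GSTU16 (AT1G59700) averaged 204.7 ± 32.3 in homozygous and 116.8 ± 21.0 in heterozygous CesA4 plants (SD over 3 arrays each), which gave a log2 change of 0.80 ± 0.17 (limma adjusted p = 0.00211). In the CesA6 line it averaged 245.5 ± 30.8 in homozygous and 169.8 ± 3.82 in heterozygous plants (n = 2 each), a change of 0.52 ± 0.21 that did not pass (adjusted p = 0.156). GSTU18 (AT1G10360) rose by 0.61 ± 0.18 in the CesA4 line (adjusted p = 0.0216), with 252.6 ± 20.5 in homozygous and 168.1 ± 42.8 in heterozygous plants, and stood at 0.31 ± 0.22 in the CesA6 line. For both genes the homozygous arrays of a line lay above its heterozygous arrays in each line. The GSTU18 call was lost when replicate 1 or 3 of the homozygous or replicate 1 of the heterozygous CesA4 arrays was left out, at an adjusted p of up to 0.183, and the log2 change was 0.38 without that heterozygous array.

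The other 6 tested GST genes passed in neither line. GSTU20 (AT1G78370), whose protein binds the jasmonate-conjugating enzyme FIN219/JAR1, had 2411, 2978 and 1759 in homozygous CesA4 plants, against 1793, 2303 and 1632 in heterozygous CesA4 plants, and 1642 and 1898 in homozygous CesA6 plants, against 2727 and 2114 in heterozygous CesA6 plants. Its log2 changes were 0.30 ± 0.17 and -0.44 ± 0.21 (limma adjusted p = 0.291 and 0.244). The CesA4 change passed without homozygous CesA4 replicate 3 (0.50, adjusted p = 0.0457) and in no other of 19 alternatives (up to 0.725). GSTL3, a lambda member, stood at 0.03 ± 0.15 and -0.09 ± 0.18. GSTU23 and GSTU22 had the largest changes without a call in the CesA4 line, at -0.89 ± 0.40 and 0.73 ± 0.64, and GSTU22 and the phi member GSTF4 in the CesA6 line, at 0.83 ± 0.78 and -0.76 ± 0.43. GSTU20 to GSTU23 neighbour each other in the genome, and their tested members took both signs in each line. In the CesA6 line the positive sign is that of GSTU22, with 14.02 and 21.76 in homozygous plants, against 18.41 and 3.126 in heterozygous plants, which overlap. The mean of GSTU22 over all arrays, 11.98, passed the filter mostly through the homozygous arrays. These signs are therefore not read as a result about the run.

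Position was set beside the calls for the members of both families, and genes of the families that are not members were left out. By the order of genes in the reference, 37 members fell into 15 runs of neighbours with at most 3 genes between them, 12 of UGT and 3 of GST genes. The run of UGT76E12 and UGT76E11 was the 1 in which more than 1 member passed in a line. In 3 other runs a single member passed, GSTU16, UGT71B1 and UGT84A3. In the runs of GSTU16 and UGT71B1 no other member was tested, so a second could not pass. More than 1 member was tested only in the runs of UGT76E12, UGT84A3, UGT85A2, UGT76C1, UGT71C5 and GSTU20. The counts therefore do not show how often neighbours change together. Related genes can share probe sequence, and how far neighbours cross-hybridise was not tested.

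**Figure D4:**
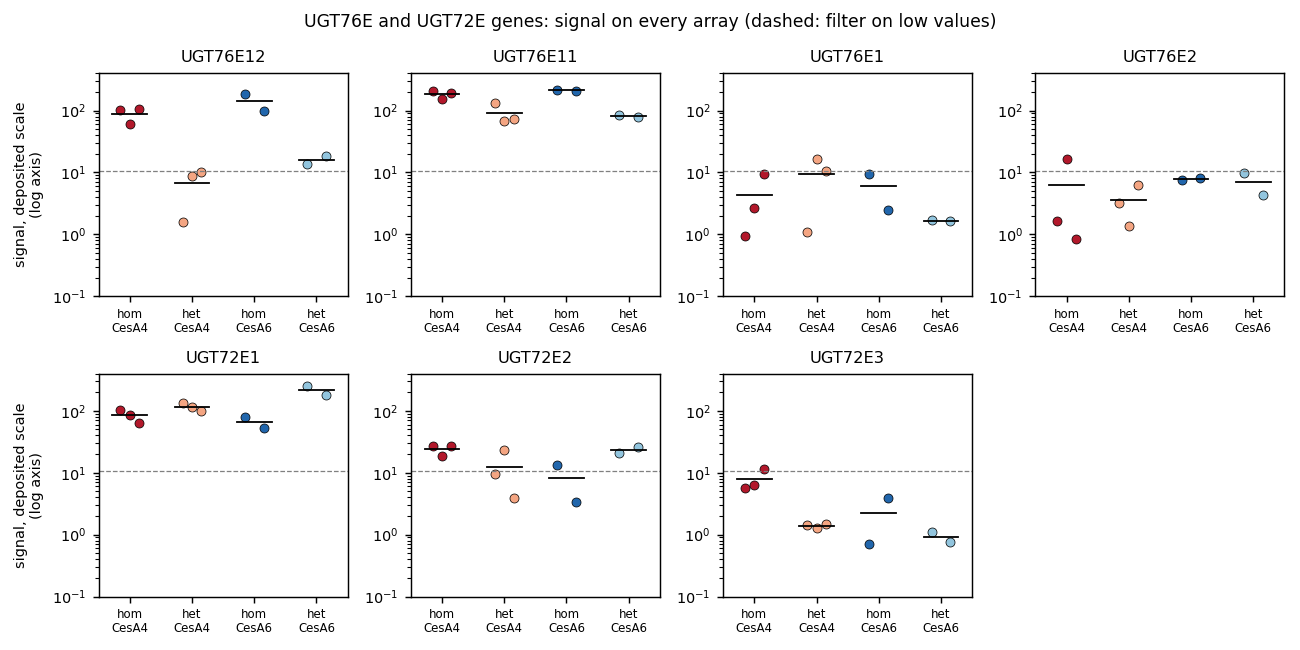
Signal on every array (points) and group mean (bars) for the 4 UGT76E genes (top) and the 3 UGT72E genes (bottom), on 1 log axis of the deposited scale, with the filter on low values dashed at 10.71. UGT76E12 and UGT76E11 have their homozygous arrays above the heterozygous ones in each line, while UGT76E1 and UGT76E2 stay near or below the filter and UGT72E1 is highest in heterozygous CesA6 plants.

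Whether a change differs between the lines was asked by subtracting the change in the CesA6 line from that in the CesA4 line. No UGT or GST gene passed in limma, where 0.578% of all probe sets did, while 6 of 27 UGT genes and 1 of 9 GST genes had an unadjusted p under 0.05, where 12% of all probe sets did. The 7 are UGT74B1, UGT72E1, UGT72B3, UGT87A2, UGT72E2, UGT71B1 and GSTU20, each with the higher change in the CesA4 line. At any p that direction was seen for 18 of 27 tested UGT genes, 6 of 9 tested GST genes and 8948 of all 15922 tested probe sets. UGT72B3, a relative of the UGT72E genes, averaged 51.05 ± 10.9 in homozygous and 35.7 ± 5.76 in heterozygous CesA4 plants, and 39.8 ± 12.8 in homozygous and 71.29 ± 2.04 in heterozygous CesA6 plants, a difference of 1.30 ± 0.41 (adjusted p = 0.172). The median difference was 0.08 over the tested UGT genes, 0.28 over the tested GST genes and 0.08 over all probe sets. With quantile normalization the median over all probe sets was 0.011.

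The lines themselves were compared as CesA4 minus CesA6 over both genotypes, from the same arrays. UGT87A2 was lower in the CesA4 line, with a log2 difference of -0.99 ± 0.13 (limma adjusted p = 2.43e-05), and was the 1 of 27 tested UGT genes to pass, where 6.83% of all probe sets did (4.13% lower). Its signals in the CesA4 line, from 86.82 to 208.8, lay below those in the CesA6 line, from 234.2 to 318.4. No GST gene passed in limma, and 1 of 9 had an unadjusted p under 0.05, GSTU16 at -0.40 ± 0.14 (adjusted p = 0.0843), where 20% of all probe sets did. UGT76E12 stood at -0.84 ± 0.30 (adjusted p = 0.0986). A processing difference that went with line cannot be told apart from line here.

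Genes around conjugation were covered thinly. Of 51 listed genes of glutathione metabolism, glutathione peroxidases, vacuolar conjugate transporters, UDP-sugar supply and the response to foreign compounds, 3 had a named probe set and 2 were tested. The organellar glutathione reductase gene GR2 (AT3G54660) had 798.5 and 1094 in homozygous CesA6 plants, against 582.4 and 606.9 in heterozygous CesA6 plants, and rose by 0.65 ± 0.20 on the log2 scale (limma adjusted p = 0.0468). That call was lost in 9 of 19 alternatives, among them those that left out replicate 2 of the homozygous or either replicate of the heterozygous CesA6 arrays, at an adjusted p of up to 0.481. In the CesA4 line GR2 stood at 0.17 ± 0.17, and the cytosolic glutathione reductase gene GR1 (AT3G24170) stood at 0.21 ± 0.15 in the CesA4 line and 0.02 ± 0.18 in the CesA6 line. The transporter gene DTX3 lay below the filter.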

How the data were processed

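The deposited intensities are MAS5 signals made by the authors in GCOS, per the submitters' processing notes, on a linear scale with a common trimmed mean. Other steps are not given in the sources used here. Arrays were brought to a 2% trimmed mean of 500, and log2 was applied after adding a pseudocount of 16. The 64 control probe sets and the 30% with the lowest mean were left out, which left 15922. limma 3.58.1 (R 4.3.3) fitted a mean for each of the 4 groups over all 10 arrays, with eBayes with trend and robust, 6 residual degrees of freedom and Benjamini-Hochberg adjustment at 0.05. The fit was also run on simulated data with independent normal errors, a simpler setting than these arrays, and no result here rests on that run. Errors of log2 changes are standard errors, and those of signals SDs between arrays. The number of arrays limits the precision.

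Gene names came from the GEO platform annotation, matched by gene ID to TAIR10.1 for 13436 of 13513 probe sets with 1 gene, and no coordinates are given. The members and lists were chosen with earlier results of these data known. Named are all members past the threshold, with every array's signal from a 2-fold change on, and per family and line the 2 largest changes that did not pass. Genes named beyond this, by role, by relation to a called gene or by an unadjusted p, were chosen after their values were seen. Alternatives changed the pseudocount, scaling, filter, eBayes settings, arrays fitted, a block for the replicate number, and left out each array in turn.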

Additional observations from a re-analysis of the deposited data

Results flagged for a closer look

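The glucosinolate gene UGT74B1 had every homozygous array above every heterozygous array in the CesA4 line and every homozygous array below every heterozygous array in the CesA6 line. Of all tested probe sets, 2.75% showed such opposite orders. The difference of its changes, 0.971 on the log2 scale, did not pass in limma (adjusted p = 0.0908), but passed with a replicate block (adjusted p = 0.0316). Whether the replicate numbers pair the arrays was not settled. Its change in the CesA4 line did not pass with eBayes without trend and robust (adjusted p = 0.0561).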

How the results depend on the processing

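Of the 16 calls of UGT and GST genes, none turned its sign under the alternatives run for it, and 11 held in every one. The exceptions are UGT71B1, UGT74B1, UGT85A4 and GSTU18 in the CesA4 line and UGT84A3 in the CesA6 line. eBayes without trend and robust ended the calls of UGT71B1, UGT74B1 (adjusted p = 0.0561) and GSTU18, and UGT85A4 and UGT84A3 lost theirs only with an array left out, as given above. At a filter of 50% UGT85A4 was not tested. UGT76E12 ran from 2.19 to 3.79 in the CesA4 line and from 2.23 to 3.27 in the CesA6 line. Deviations of same-numbered arrays of a line correlated at 0.019 to 0.078, and those of differently numbered arrays at -0.075 to 0.025. With 2 or 3 arrays per group these values cannot decide whether the replicate numbers pair the arrays. With a replicate block 2 UGT genes passed in the difference between lines, UGT74B1 (adjusted p = 0.0316) and UGT72E1 (adjusted p = 0.0322), against 0 without it. UGT85A4 in the CesA6 line and GSTU20 in the CesA4 line passed in 1 alternative each, as given above. In the comparison of the lines 2 UGT genes passed with no filter on low values, and from 1 to 3 with a CesA4 array left out, against 1. The gene added with no filter was UGT76B1. With a homozygous CesA4 array left out UGT76B1 was added each time, and UGT71B1 without replicate 1. UGT76B1 lay below the filter with all arrays, so it was not tested there, and with an array left out only its CesA6 signals lifted it over the filter. Over all probe sets, eBayes without trend and robust in limma called 744 in the CesA6 line against 1361, 424 between the lines against 1087 and 0 in the difference against 92 (1632 at an unadjusted p under 0.05), and the block called 205 in the difference. With an array left out these counts ran from 721 to 1558, 503 to 1113 and 15 to 137. The cause was not tested. The block ended no call. Each member has a single probe set, so the mean over probe sets was not run. Dim members, near the filter, are limited by signal over background.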

Other observations

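UGT76B1, which glucosylates isoleucic acid and N-hydroxypipecolate of plant immunity, lay just below the filter on low values and so entered no comparison. Its signals in the CesA4 line were 1.844, 1.05 and 0.6589 in homozygous and 1.025, 9.445 and 0.4186 in heterozygous plants. In the CesA6 line they were 17.28 and 21.27 in homozygous and 37.3 and 13.82 in heterozygous plants. The lines did not overlap. With no filter the CesA4 line minus the CesA6 line was -2.27 on the log2 scale (limma adjusted p = 0.0071), a shrunken estimate, since signals of the CesA4 line lay mostly below the pseudocount. This difference was tested in 6 alternatives and passed in 4, at a limma adjusted p from 0.0071 to 0.0606. The other passes left out homozygous CesA4 replicate 1, 2 or 3, whose low signal kept the mean of UGT76B1 below the filter. In those fits the gene cleared the filter only through the CesA6 arrays. Its group means were 1.184 and 3.63 in homozygous and heterozygous CesA4 plants, against 19.28 and 25.56 in CesA6 plants. The passes also reuse most of the same arrays, so they are not separate support for a difference between the lines.

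UGT72E3, a monolignol gene below the filter, had 5.681, 6.427 and 11.53 in homozygous CesA4 plants, against 1.433, 1.269 and 1.502 in heterozygous CesA4 plants, and 0.6934 and 3.856 in homozygous CesA6 plants, against 1.093 and 0.7619 in heterozygous CesA6 plants. The groups did not overlap in the CesA4 line, where the same held for 29.7% of all tested probe sets. The heterozygous CesA4 signals of UGT72E3 lay below the pseudocount of 3.2 on the deposited scale, and its change was not tested.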
